A study of Gallus gallus with 6 samples.

Results

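The vacuolar ATPase (V-ATPase) and 23 lysosomal hydrolases, cofactors and membrane proteins were followed in granulation tissue (GT) of the wounded chick chorioallantoic membrane (CAM). Genes were taken by symbol from the probe annotation: those starting with ATP6V or ATP6AP, 21 in all, and the 23 found of 24 listed lysosomal genes, NEU1 not being analysed here. These 44 genes, of 13009 named on the array, were covered by 76 probe sets, 37 for the V-ATPase and 39 for the others. Where a gene had several, the one with the highest mean over the 6 arrays stood for it.

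Lysosomes digest material taken up from outside the cell or delivered by autophagy, with hydrolases that work at acidic pH. That acidity is made by the V-ATPase, in which a cytosolic V1 sector splits ATP and drives protons through a membrane-bound V0 sector. Phagocytic macrophages are rich in lysosomes, and acid-secreting cells such as kidney intercalated cells, osteoclasts and the villus cavity cells of the CAM place V-ATPase in the plasma membrane, in mammals with subunit isoforms of their own.

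Brown Leghorn embryos were cultured for 10 days, the later part out of the shell in Petri dishes, before the CAM was cut with a scalpel, its epithelium scraped off and the wound covered with a nylon grid. Tissue was taken 6 days later. Wound and uninjured control CAM from each of 3 eggs gave 3 wound and 3 control Affymetrix chicken GeneChips, 1 array per tissue sample. Both groups were whole tissue, so fewer cells of a type and less RNA per cell cannot be told apart. Sex and age other than these days are not given in the sources used here, and no source says that arrays of equal replicate number came from 1 egg, although such arrays deviated together and are treated below as pairs. Levels are the authors' log2 intensities. They can be compared between arrays for 1 probe set but not between probe sets. Summed linear signals of marker lists, given below, are weighted to the brightest probe sets. They compare arrays only, not the amounts of different genes. Wound 3 stood apart in its smooth muscle markers, which lay at a median of -0.19 from the control mean there and at -1.90 and -2.29 in wounds 1 and 2, and counts without it are given below.

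In wounds the V-ATPase rose in 9 of 21 genes and fell in 0, at an adjusted p under 0.05 in unpaired limma over all 38439 probe sets. Counts with the replicate number as a block follow below. Of all 13009 genes, 3.92% rose and 0.392% fell. The hydrolases and membrane proteins rose in 7 of 23 genes and fell in 0. At an unadjusted p under 0.05, 14 V-ATPase genes were higher and 1 lower, against 12 and 1 of the other group, where 17.5% of all genes were higher and 5.93% lower. A rise of more than 2-fold was reached by 4 V-ATPase genes, ATP6V1A, ATP6V1B2, ATP6AP1 and ATP6V1G1, and by 3 of the others, GUSB, ASAH1 and NPC2, where 1.06% of all genes passed both thresholds. The median log2 fold change was 0.56 for the V-ATPase and 0.34 for the other group, beside 0.01 over all genes. The difference between both groups was not tested. Of the 16 genes that rose, 8 (ATP6V1A, ATP6V1B2, ATP6V1G1, ATP6AP1, GUSB, NPC2, ASAH1 and PSAP) stand in lists that the study drew from these same arrays.

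The wounds lay above all 3 controls in 14 V-ATPase genes and 13 of the other group, where 20.8% of all genes did so. They lay below all controls in 1 gene of each, ATP6V0A4 and TFEB, where 7.81% of all genes did so. Each wound exceeded the control of the same replicate number in 15 genes of each group, against 32.8% of all genes. With the replicate number as a block, 0 V-ATPase genes passed the test, the lowest adjusted p being 0.0595, though 14 were higher at an unadjusted p under 0.05, where 21.6% of all genes were. In the other group GUSB, ASAH1, NPC2 and LAMP1 passed it, where 1.31% of all genes were higher. Adjusted p values from this fit are called blocked below.

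The calls changed when 1 array was left out, which also lowers the number of arrays tested. Whether the array left out or the lower number made the change was not tested. Without control 2 or control 3, 0 of the 44 genes passed, and 0.223% and 0.138% of all genes were then higher. At an unadjusted p under 0.05, 11 V-ATPase genes and 11 of the others were higher without control 2, where 14.7% of all genes were, and 11 and 10 without control 3, where 14.2% were. Without control 1 the V-ATPase kept ATP6AP1 and the other group ASAH1 and PSAP, with 0.692% of all genes higher. The counts were 5 and 2 without wound 1 (1.71% of all genes), 4 and 3 without wound 2 (1.56%) and 6 and 5 without wound 3 (3.78%).

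Of 13 listed V1 subunit genes 9 were measured here. Among these 6 of 9 rose, with a median log2 fold change of 0.89. ATP6V1A, the catalytic A subunit that splits ATP, measured 7.54, 7.78 and 7.67 in controls 1 to 3 and 8.74, 9.28 and 8.79 in wounds 1 to 3. The groups did not overlap and wound 2 was highest, giving a 2.42-fold rise (log2 fold change 1.27, SE 0.17, adjusted p = 0.0407, blocked 0.0595, n = 3 arrays each). ATP6V1B2, the B subunit found in most tissues, which lies beside A in the head of the pump, measured 6.65, 6.57 and 6.81 in controls and 7.68, 8.003 and 7.80 in wounds. It rose 2.21-fold without overlap (log2 fold change 1.15, SE 0.11, adjusted p = 0.0228, blocked 0.0759), again with wound 2 highest.

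Of the stalk subunits of V1 and those that tie it to V0, G1, H and C1 also rose. ATP6V1G1, the common G subunit of the peripheral stalk, measured 10.15, 10.15 and 10.18 in controls and 11.22, 11.33 and 10.96 in wounds. The controls nearly coincided and all wounds were higher, a 2.01-fold rise (log2 fold change 1.01, SE 0.10, adjusted p = 0.0247, blocked 0.0723). ATP6V1H, which regulates the coupling of the sectors, measured 5.80, 5.82 and 5.78 in controls and 6.63, 6.99 and 6.65 in wounds. Its log2 fold change was 0.96 (SE 0.11, adjusted p = 0.0301, blocked 0.0694). For ATP6V1C1, the common C subunit, through which V1 is held on V0, the levels were 8.003, 7.61 and 7.80 in controls and 8.69, 8.77 and 8.62 in wounds. Here the spread lay in the controls and the wounds were close together (log2 fold change 0.89, SE 0.11, adjusted p = 0.0371, blocked 0.0963).

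ATP6V1D, of the central rotor, rose least of the V1 genes past the test, by a log2 fold change of 0.50 (SE 0.04, adjusted p = 0.0178, blocked 0.0596), with controls from 8.78 to 8.82 and wounds from 9.23 to 9.38. ATP6V1E1, a stalk partner of G1, had a log2 fold change of 0.89, the same as ATP6V1C1, but with more spread (SE 0.21, adjusted p = 0.126): controls lay from 9.08 to 9.45 and wounds from 9.76 to 10.42 without overlap. The remaining measured V1 genes were ATP6V1C2 and ATP6V1G3, isoforms that in mammals are found in kidney and few other tissues. ATP6V1C2 had a log2 fold change of -0.02 (SE 0.19, adjusted p = 0.998). ATP6V1G3 measured 7.26, 6.08 and 6.86 in controls and 7.30, 5.95 and 6.29 in wounds. Its groups overlapped, and arrays 1 were highest and arrays 2 lowest in both, so that array numbers differed more than wounds and controls (log2 fold change -0.22, SE 0.49, adjusted p = 0.977).

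**Figure D1:**
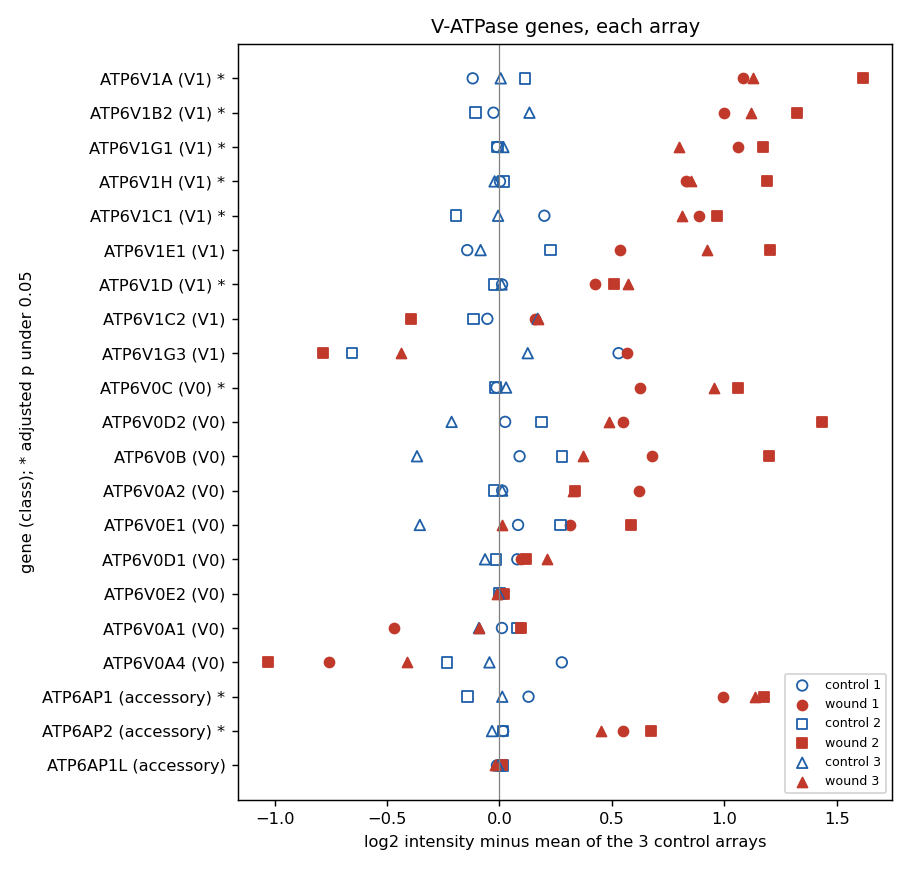
Log2 intensity of each V-ATPase gene on each of the 6 arrays, less the mean of its 3 controls, with controls and wounds as separate points by replicate number. The 9 genes past the test have all wounds above all controls, and ATP6V0A4 has all wounds below.

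Of the 9 V0 genes 1 rose, and their median log2 fold change was 0.30. That gene was ATP6V0C, the c subunit whose copies form most of the proton-carrying ring. It measured 10.77, 10.76 and 10.81 in controls and 11.40, 11.84 and 11.74 in wounds. The controls nearly coincided and every wound was above them, a 1.84-fold rise (log2 fold change 0.88, SE 0.12, adjusted p = 0.0443, blocked 0.0894). ATP6V0B, the c'' subunit of the same ring, had a log2 fold change of 0.75 (SE 0.28, adjusted p = 0.332, blocked 0.0775), from 7.46 to 8.11 in controls and 8.20 to 9.03 in wounds. The small e subunit ATP6V0E1 varied along the replicate numbers, with pair differences of 0.23, 0.31 and 0.37 but overlapping groups (adjusted p = 0.728). ATP6V0E2 had overlapping groups (log2 fold change 0.00, SE 0.01, adjusted p = 0.993).

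The a subunits, which carry the proton channels and set where the pump goes, had no gene past the test. ATP6V0A2, found in Golgi and endosomes in mammals, had a log2 fold change of 0.43 (SE 0.09, adjusted p = 0.103) with no overlap. ATP6V0A1 measured 5.64, 5.71 and 5.54 in controls and 5.16, 5.73 and 5.54 in wounds, so that wound 1 alone was low (log2 fold change -0.15, SE 0.16, adjusted p = 0.835). Without wound 1 its log2 fold change was 0.0024. ATP6V0A4, the isoform of acid-secreting cells in mammals, measured 6.95, 6.44 and 6.63 in controls and 5.91, 5.64 and 6.26 in wounds. All wounds were below all controls and wound 3 was nearest to them, but the difference did not pass the test (log2 fold change -0.73, SE 0.21, adjusted p = 0.204, blocked 0.183).

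The d subunits join the ring to the rotor. ATP6V0D2, which in mammals marks osteoclasts and some macrophages and kidney cells, measured 7.70, 7.86 and 7.46 in controls and 8.23, 9.11 and 8.17 in wounds. The groups did not overlap, but wound 2 stood well above the other wounds and the difference did not pass (log2 fold change 0.82, SE 0.30, adjusted p = 0.309). Its second probe set showed the same order, with 7.48, 7.57 and 7.05 in controls and 8.46, 9.32 and 8.17 in wounds (log2 fold change 1.28, adjusted p = 0.177), and another, dim one read -0.04. The widely expressed ATP6V0D1 had a log2 fold change of 0.14 (SE 0.05, adjusted p = 0.308).

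Of the 3 accessory genes 2 rose. ATP6AP1, which helps the V0 sector assemble and stays in the complex, measured 8.73, 8.46 and 8.61 in controls and 9.60, 9.78 and 9.74 in wounds. The wounds lay close together and far above the controls, a 2.15-fold rise (log2 fold change 1.10, SE 0.09, adjusted p = 0.0174, blocked 0.0726). ATP6AP2, the prorenin receptor, measured 9.70, 9.70 and 9.65 in controls and 10.23, 10.36 and 10.13 in wounds, with no overlap. It rose 1.47-fold (log2 fold change 0.56, SE 0.06, adjusted p = 0.0300, blocked 0.0615). ATP6AP1L was dim on all arrays, from 2.44 to 2.48, below the median probe set mean of 3.05, and its log2 fold change was 0.00.

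Widely expressed and restricted isoforms of 1 subunit were compared in 4 pairs, chosen after the values were seen. For the widely expressed less the restricted isoform, the difference between the log2 fold changes was 0.91 (SE 0.26) for ATP6V1C1 less ATP6V1C2, 1.23 (SE 0.55) for ATP6V1G1 less ATP6V1G3 and 1.16 (SE 0.25) for ATP6V0A2 less ATP6V0A4. The last pair was taken the other way round, the restricted ATP6V0D2 less the widely expressed ATP6V0D1, at 0.68 (SE 0.34). There the restricted isoform had the higher value, opposite to the other pairs. In an exact two-sided permutation test of the arrays, which cannot go below 0.1 with 3 arrays a group, p was 0.1 for each pair other than G1 and G3, where it was 0.2. Adjusted over the 4 pairs the values were 0.133 and 0.2. Given that floor and pairs picked by their values, the test cannot decide whether the isoforms differ. ATP6V0A1, with a log2 fold change of -0.15, stood in no pair, and the second probe set of ATP6V1C2 read 0.41. Within the symbol rule, 4 measured isoforms are those that mammals keep for acid-secreting and related cells: ATP6V0D2, ATP6V1C2, ATP6V1G3 and ATP6V0A4. They had log2 fold changes of 0.82, -0.02, -0.22 and -0.73, a median of -0.12. In limma 0 passed the test, and 1 was higher and 1 lower at an unadjusted p under 0.05. TCIRG1, the a subunit of osteoclasts, is outside that rule and so in neither the pairs nor this median. It had a log2 fold change of 1.08 (adjusted p = 0.0766 in limma).

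Among the 13 hydrolases 3 rose, with a median log2 fold change of 0.34. GUSB, the beta-glucuronidase that takes glucuronic acid off glycosaminoglycans, measured 8.18, 7.68 and 8.19 in controls and 9.91, 9.70 and 10.15 in wounds. Wounds and controls did not overlap, and number 2 was the lowest of both groups. This was the highest fold change of the 44 genes, 3.74-fold (log2 fold change 1.90, SE 0.19, adjusted p = 0.0253, blocked 0.0417). ASAH1, the acid ceramidase, measured 9.09, 8.84 and 8.71 in controls and 10.50, 10.46 and 10.28 in wounds. It rose 2.89-fold (log2 fold change 1.53, SE 0.12, adjusted p = 0.0170, blocked 0.0417), with every pair between 1.41 and 1.61. AGA, which cuts the bond between sugar and asparagine in glycoproteins, measured 9.17, 9.25 and 9.22 in controls and 9.61, 9.58 and 9.68 in wounds. This small rise had little spread (1.33-fold, log2 fold change 0.41, SE 0.04, adjusted p = 0.0211, blocked 0.0651).

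The hydrolases not past the test had log2 fold changes from -0.38 to 1.74. GALC, which degrades galactosylceramide, reached 3.33-fold without overlap, from 5.27 to 5.90 in controls and 6.94 to 8.31 in wounds, but wound 1 was far above the other wounds (SE 0.45, adjusted p = 0.161, blocked 0.154). ARSB, which removes sulphate from dermatan and chondroitin sulphate, had a log2 fold change of 0.82 (adjusted p = 0.276), and in HEXA, a chain of beta-hexosaminidase, the value of 0.56 (adjusted p = 0.376) came mostly from wound 3 at 6.44 against 5.67 and 5.77. IDS, GLB1 and MANBA, which act on glycosaminoglycans, galactosides and mannosides, had values of 0.34, 0.31 and 0.31, with adjusted p from 0.102 to 0.665. FUCA1 (0.04), SGSH (-0.03) and the peptidase TPP1 (-0.24) overlapped between groups. GAA, which breaks down glycogen, was lowest of the hydrolases. It measured 2.68, 2.60 and 3.77 in controls and 2.36, 2.36 and 3.18 in wounds, a dim probe set that was brightest on arrays 3 of both groups (log2 fold change -0.38, SE 0.43, adjusted p = 0.858).

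Of the 3 cofactors and lipid binders 2 rose. PSAP, the precursor of the saposins that present sphingolipids to their hydrolases, measured 11.56, 11.67 and 11.61 in controls and 12.09, 12.10 and 12.15 in wounds. Its rise of 1.42-fold was small and the wounds nearly coincided (log2 fold change 0.50, SE 0.04, adjusted p = 0.0153, blocked 0.0552). NPC2, which hands cholesterol to NPC1 in the lysosome, measured 9.28, 9.34 and 9.60 in controls and 10.30, 10.59 and 10.78 in wounds. It rose 2.22-fold without overlap (log2 fold change 1.15, SE 0.16, adjusted p = 0.0434, blocked 0.04996, just under the threshold). GM2A, the GM2 ganglioside activator, had overlapping groups (log2 fold change 0.20, SE 0.35, adjusted p = 0.952).

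The lysosomal membrane proteins LAMP1 and LAMP2, the most abundant of this membrane, rose. LAMP1 measured 10.13, 10.26 and 10.23 in controls and 10.84, 11.05 and 10.90 in wounds, with pair differences of 0.71, 0.78 and 0.67 (1.65-fold, log2 fold change 0.72, SE 0.07, adjusted p = 0.0228, blocked 0.0443). LAMP2 measured 6.40, 6.60 and 6.65 in controls and 7.31, 7.15 and 7.18 in wounds, a rise of 1.59-fold (log2 fold change 0.66, SE 0.08, adjusted p = 0.0382, blocked 0.119). NPC1, the membrane exporter of cholesterol, was higher in all wounds with a log2 fold change of 0.73 (SE 0.19, adjusted p = 0.155), and SCARB2, which carries glucocerebrosidase to lysosomes, of 0.34 (adjusted p = 0.334). The tetraspanin CD63 overlapped between groups (0.19, adjusted p = 0.916). MCOLN1, the calcium channel of lysosomes, measured 5.01, 4.94 and 4.94 in controls and 4.18, 5.04 and 4.94 in wounds. Wound 1 alone was low, and without it the log2 fold change of -0.24 (SE 0.25, adjusted p = 0.834) became 0.03.

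TFEB, a transcription factor that switches on many lysosomal genes in mammals, measured 6.02, 5.79 and 5.60 in controls and 4.95, 5.54 and 5.19 in wounds. The wounds were all lower, wound 2 only just so, and the difference did not pass (log2 fold change -0.58, SE 0.19, adjusted p = 0.267, blocked 0.349).

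**Figure D2:**
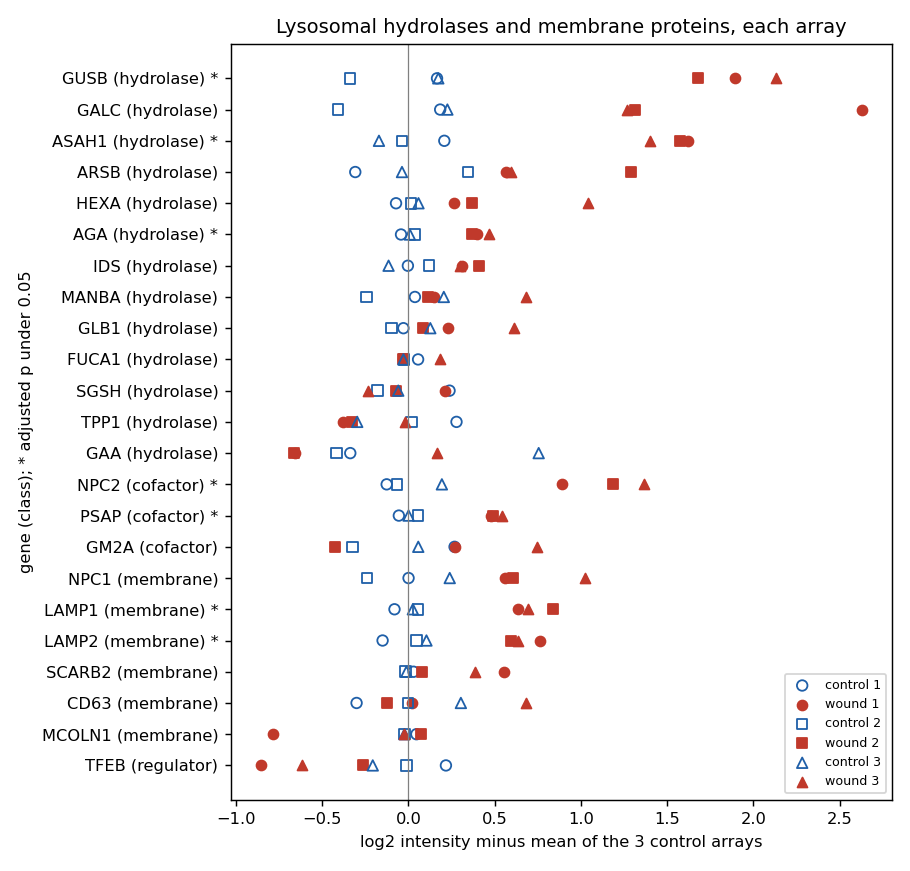
Log2 intensity of each hydrolase, cofactor, membrane protein gene and TFEB on each of the 6 arrays, less the mean of its 3 controls, with controls and wounds as separate points by replicate number. GUSB, GALC and ASAH1 have the highest fold changes, GALC with wound 1 far above the others, and TFEB has all wounds below the controls.

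Several probe sets were present for 16 of the 44 genes, and only ATP6V0D2 had log2 fold changes more than 1 apart. GUSB had 3 probe sets at 1.90, 1.66 and 0.90, of which the second also passed (adjusted p = 0.0298). PSAP had 4, and the probe set of highest mean gave the smallest change: the others read 1.19 (adjusted p = 0.0228), 1.40 (adjusted p = 0.0127) and 0.59 (adjusted p = 0.222). ATP6V1A read 1.27 and 1.09, the latter at an adjusted p of 0.0549. For NPC1 the second probe set gave nearly the same value as the first with less spread, 0.77 (SE 0.05, adjusted p = 0.0153, blocked 0.0469). LAMP2 disagreed between its brighter probe sets, 0.66 and -0.11, and its rise therefore rests on 1 of 5. For AGA the other probe sets had the same direction, 0.35 and 0.60, but did not pass (adjusted p = 0.289 and 0.283 in limma). ATP6V0A4 read -0.73 and, with the wounds again all below, -0.43 (adjusted p = 0.259), and a dim probe set -0.02. The second probe set of ATP6V1C2 read 0.41 (adjusted p = 0.643). For ATP6V0C, ATP6V1D and ATP6V0E1 the further probe sets were dim, with means up to 3.30, and log2 fold changes between -0.01 and 0.07.

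**Figure D3:**
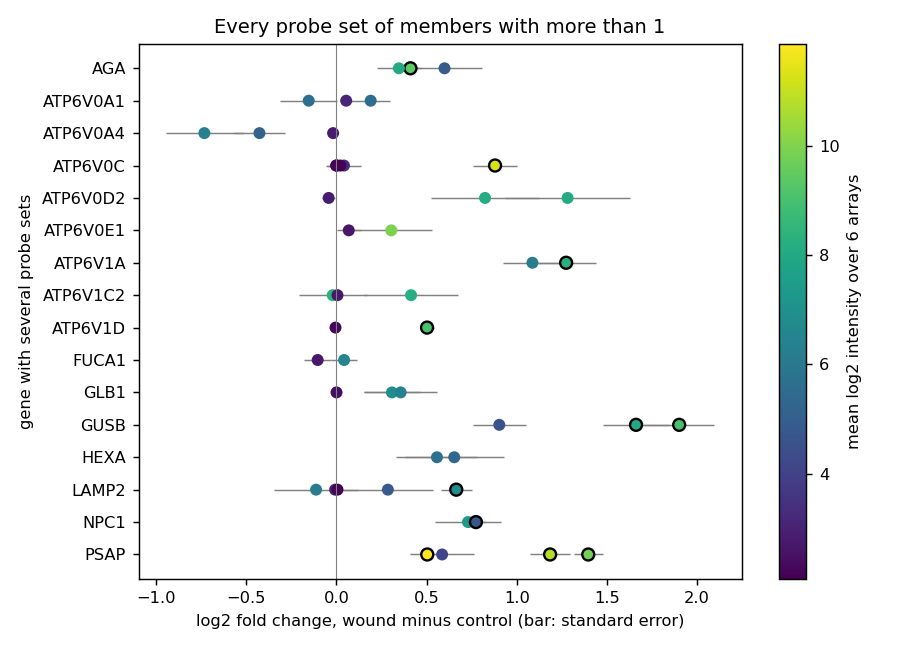
Log2 fold change with its SE for every probe set of the 16 genes that have several, by gene, coloured by mean log2 intensity and ringed in black where past the test. The probe sets of GUSB, PSAP and NPC1 lie above 0 throughout, while those of LAMP2 and ATP6V0D2 differ.

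The fold changes of these genes have to be read against their level on the array. Over all genes the median log2 fold change was near 0 for probe sets with a mean below 5, then 0.11 from 5 to 7, 0.21 from 7 to 9, 0.38 from 9 to 11 and 0.29 above 11. The share of genes that rose went from 4.39% to 8.07%, 16.0% and 21.9% over the same ranges. The top percentile of the arrays began at 10.5 to 10.6 in controls and at 10.9 in wounds. Many of the 44 genes are bright: between 9 and 11, 4 of 6 V-ATPase genes and 4 of 5 of the other group rose, against 16.0% of all 651 genes there. From 7 to 9 it was 3 of 7 and 1 of 4, against 8.07%. From 5 to 7 it was 1 of 5 and 1 of 9, against 4.39%. In that range the V-ATPase median log2 fold change was -0.15, below the 0.11 of all genes.

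After quantile normalization, which gives all arrays the same distribution, the medians by level lay within 0.04 of 0. The median log2 fold change was then 0.28 for the V-ATPase and 0.23 for the others. Only ATP6V1B2 (0.99, adjusted p = 0.0469) and PSAP (0.17, adjusted p = 0.0212) passed the test, where 0.492% of all genes were higher. All 16 genes that rose stayed above 0, from 0.09 for AGA to 1.63 for GUSB. ATP6V0E1, ATP6V0E2, CD63 and FUCA1 changed to -0.04, -0.05, -0.22 and -0.06.

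**Figure D4:**
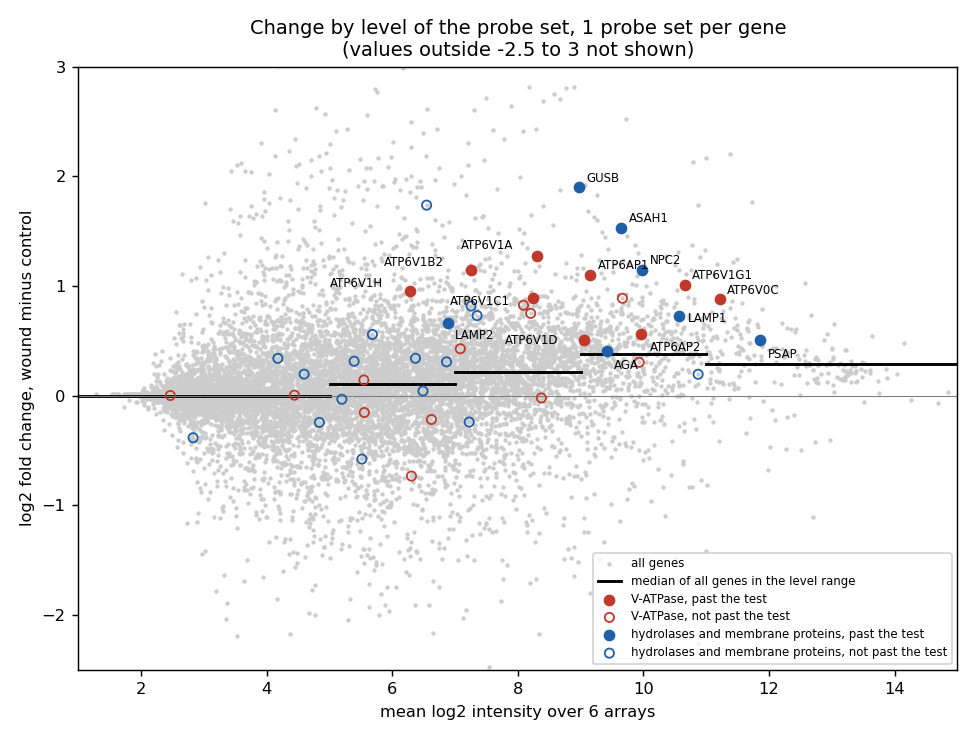
Log2 fold change of wound over control against mean log2 intensity over the 6 arrays, 1 probe set per gene, with all genes in grey (those outside the plotted range left out), their median in each level range as a black line, and the V-ATPase and the other lysosomal genes in colour (filled where past the test). The black line lies at 0.38 between 9 and 11. The genes past the test lie above it at their level, AGA only just at 0.41, but were called as higher in these same arrays.

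Over all members the wounds did not rank alike in the groups. Wound 2 was the highest wound in 15 of 21 V-ATPase genes and in 8 of the 9 that rose, while wound 3 was highest in 13 of the 23 others. As medians over genes of the difference from the control mean, the V-ATPase stood at 0.55, 0.68 and 0.45 in wounds 1 to 3 and the other group at 0.31, 0.37 and 0.61. Among the genes that rose, the order did not differ in this way. Wound 3 was highest in 4 of the 7 others that rose. The medians of the genes that rose were 0.89, 1.17 and 0.85 in wounds 1 to 3 for the V-ATPase. For the others they were 0.76, 0.84 and 0.69, so wound 2 stood highest in each group. The difference in order was not tested, and no share over all genes is given for these counts.

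Other lysosomal genes were followed in lists made from knowledge of the pathway, with earlier results of these data known. Of those named below, LIPA, PPT1, LAPTM5, RRAGD and TCIRG1 stand among the up-regulated genes that the study listed from these same arrays. Their higher values are therefore not an independent result. Of all genes, 3.92% rose and 0.392% fell. At an unadjusted p under 0.05, 17.5% of all genes were higher and 5.93% lower. Of 21 other enzymes, 7 were higher and 2 lower at that unadjusted p, with a median log2 fold change of 0.05. Past the adjusted threshold, 2 of the 21 rose and 0 fell. These were LIPA, the acid lipase of cholesteryl esters, with 7.56, 7.34 and 7.04 in controls and 9.83, 10.26 and 9.97 in wounds (6.51-fold, adjusted p = 0.0147, blocked 0.0568), and the depalmitoylating PPT1 (2.28-fold, adjusted p = 0.0308, blocked 0.0749). Of 20 other membrane and sorting proteins 4 rose and 0 fell: LAPTM5 of blood cell lysosomes (6.25-fold, adjusted p = 0.0153, blocked 0.0626), OSTM1, the partner of the chloride exchanger CLCN7 (1.66-fold, blocked 0.0595), LAPTM4A (1.5-fold, blocked 0.0677) and the phosphoinositide phosphatase TMEM55A (1.45-fold, blocked 0.1002). LAPTM5 is counted again among the myeloid markers below.

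V-ATPase partners outside the symbol rule, 10 in all, rose in 2 and fell in 0, where 3.92% of all genes rose. VMA21, an assembly chaperone of V0, rose 1.78-fold (adjusted p = 0.0434, blocked 0.0503) and OXR1, which binds the pump, 1.65-fold (adjusted p = 0.0211, blocked 0.0587). TCIRG1, the a subunit of osteoclasts and macrophages in mammals and named here after its value was seen, measured 5.67, 5.59 and 5.55 in controls and 6.30, 6.75 and 7.01 in wounds. It did not overlap but missed the threshold (2.12-fold, log2 fold change 1.08, adjusted p = 0.0766). Of 14 TFEB relatives and nutrient-sensing genes at the lysosome 2 rose and 0 fell, RRAGD (2.17-fold, adjusted p = 0.0303, blocked 0.0984) and FLCN (1.82-fold, adjusted p = 0.0162, blocked 0.0577).

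Myeloid markers moved in the same arrays. All 14 measured of 20 myeloid markers had every wound above every control, against 20.8% of all genes. Of the 14, 11 rose, against 3.92% of all genes, and the median log2 fold change was 2.09. All 14 also stand among the up-regulated genes that the study listed from these same arrays, so their rise is not an independent result. With the replicate block 1 of them passed the test, and after quantile normalization 6, where 1.31% and 0.492% of all genes were higher. Their summed linear signal was 808 to 1172 in controls and 4212 to 5133 in wounds, and their median rises were 2.20, 2.15 and 2.31 in wounds 1 to 3. The defining SPI1 rose 6.09-fold (blocked 0.0870) and CSF1R had a fold of 3.13 (adjusted p = 0.0589). Of 7 osteoclast and giant cell markers 0 passed in limma. At an unadjusted p under 0.05, 2 were higher, CTSK and MMP9, and 1 lower, where 17.5% and 5.93% of all genes were. The study lists the probe sets of CTSK and MMP9 among those up-regulated in these same arrays. The summed signal of the 7 was 987 to 1236 in controls and 1880 to 3069 in wounds. That sum came mostly from CTSK, at 9.70 to 10.04 in controls and 10.68 to 11.48 in wounds. ITGB3 was the lower gene, and 4 of the 7 were dim. Among them DCSTAMP lay between 2.35 and 2.39 on all arrays other than wound 2, at 3.95. Of 6 measured of 10 epithelial markers 2 rose, EPCAM (1.66-fold, blocked 0.0541) and CLDN1 (1.72-fold, blocked 0.0417). After quantile normalization their adjusted p was 0.0581 and 0.0816 in limma. The summed signal of the 6, mostly from these 2, was 9502 to 9740 in controls and 15400 to 16164 in wounds. The study lists another probe set of EPCAM, under the symbol TACSTD1, among those up-regulated in these same arrays, so its rise is not an independent result. EPCAM, which marks epithelial cells, stood at 12.29 to 12.31 in controls and at 12.94 to 13.12 in the wounds, whose epithelium had been scraped off 6 days before. The part of these cells in the lysosomal result was not tested.

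The other marker lists had 0 genes past the test in either direction in limma. The median log2 fold change was -0.65 for 8 endothelial, -0.48 for 7 fibroblast and -1.47 for 4 smooth muscle markers. Of these 6, 1 and 1 were lower at an unadjusted p under 0.05, where 5.93% of all genes were. Of 2 heterophil, 9 lymphocyte and 2 erythroid markers, 1, 2 and 0 were higher at that level, where 17.5% of all genes were. Of 6 markers of acid-secreting epithelium 0 passed and 1 was lower at an unadjusted p under 0.05, RHCG, the ammonia channel of such cells, with a log2 fold change of -0.82 (adjusted p = 0.252). Carbonic anhydrase CA2 measured 9.47 in control 3 and 9.20 in wound 3 but 12.33 to 12.74 on the other arrays. The difference between 3′ and 5′ probe sets of actin, a sign of RNA length, was 1.02 to 1.13 in controls and 0.73 to 0.96 in wounds, while that of GAPDH overlapped. Its part in the result was not tested.

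**Figure D5:**
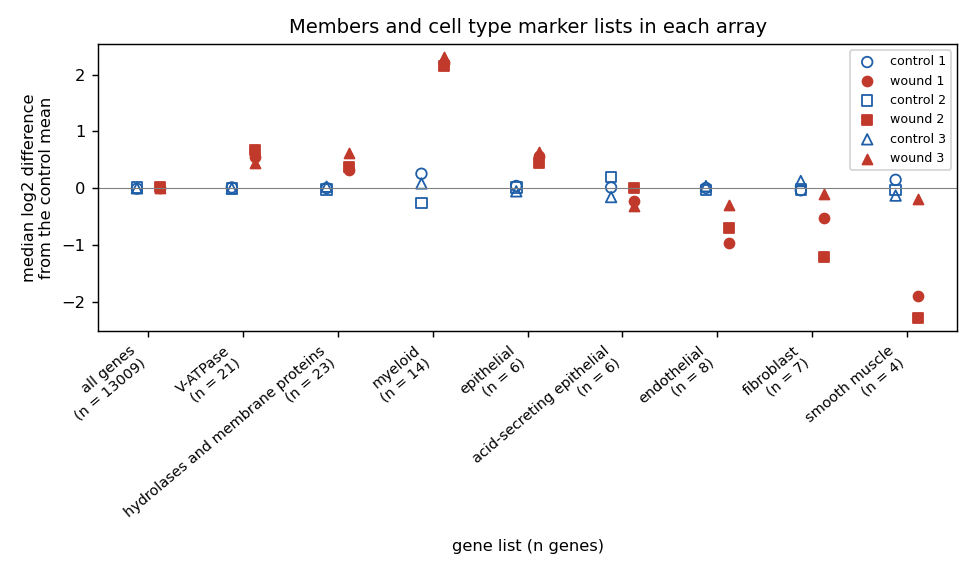
Median over genes of the difference from the control mean on each of the 6 arrays, for all genes, the V-ATPase, the other lysosomal genes and 6 lists of cell type markers, in log2 units. The V-ATPase lies at 0.45 to 0.68 in the wounds and the myeloid markers at 2.15 to 2.31.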

How the data were processed

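RNA of 3 control and 3 wound CAM samples was hybridised to Affymetrix chicken GeneChips. The authors deposited log2 intensities per probe set, which the submitters' processing notes call RMA (version not given in the sources used here). GCOS 1.2 scaling, also in the study's methods, makes linear signals, unlike the deposited values of 1.16 to 15.10. Array medians were 3.01 to 3.05. Precision is limited by the number of arrays. No per-sample column stayed unused (0).

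After 96 control probe sets were removed, 38439 were tested, of which 27168 carry a single gene symbol. The RefSeq gene table holds all 44 symbols. The test was limma 3.58.1 (lmFit and eBayes, R 4.3.3) of wounds against controls, p being adjusted by Benjamini-Hochberg over all tested probe sets, at 0.05 and, where stated, a fold of 2. Folds are 2 raised to the log2 fold change. Genes and lists were chosen with earlier results of these data known. In each group, array values are given for up to 8 genes of highest log2 fold change past the test, for the 3 lowest, and for any gene whose probe sets differ by over 1. Each other lysosomal list names up to 5 members past the test, and other genes are named where a result turns on them. Deviations from the group means correlated between wound and control of the same number at 0.58, 0.63 and 0.45. These are Pearson's r across probe sets, not independent replicates, and each was over 0.1. The numbers were therefore taken as pairs in the replicate block and the pair differences, while the main test was unpaired. Known changes were simulated for wound against control (38439 probe sets) on 6 arrays drawn with each probe set's mean and spread. Of the changes, 48 of 67 were found at log2 1, 57 of 67 at log2 2 and 64 of 66 at log2 3. In all, 22 of 191 calls were false, a share above 0.05. The drawn noise was independent, without the correlation of equal numbers or the shift with level, so these rates hold for that setting only. Alternatives were quantile normalization, a filter on dim probe sets, the replicate block, eBayes with trend and robust, the mean or the second of a gene's probe sets, adjustment over 1 probe set per gene, and leaving out each array. The isoform pairs with their exact permutation test were added after seeing the data. Software also included matplotlib 3.10.9, numpy 2.4.6, pandas 2.3.3 and Python 3.11.15. The study's other data were not analysed here.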

Additional observations from a re-analysis of the deposited data

How the results depend on the processing

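The number of V-ATPase genes higher in wound, 9, was 1 after quantile normalization and 0 with the replicate block, and the number of other lysosomal genes, 7, was 1 and 4. Leaving out 1 array gave 0 to 6 V-ATPase genes and 0 to 5 of the others. The number lower in wound was 0 in both groups under every alternative run. The V-ATPase median log2 fold change, 0.56, was 0.28 after quantile normalization and 0.43 both with the mean of a gene's probe sets and with its probe set of second highest mean. Among genes not past the test, ATP6V0A1 changed sign to 0.030 with the mean of its probe sets and 0.19 with the second, and ran from -0.28 to 0.0024 when 1 array was left out. ATP6V1G3 ran from -0.61 to 0.065 and MCOLN1 from -0.40 to 0.026. ATP6V1G3 was above 0 without control 1 (0.047) or wound 2, and the others without wound 1. LAMP2, past the test, read -0.11 with its second probe set. Of the 16 genes that rose, 14 lost their call after quantile normalization, 12 with the replicate block, 5 under eBayes with trend and robust, and 16 without control 2 or without control 3. With the dim filter or adjustment over 1 probe set per gene, 0 of them lost it. The cause of these changes was not tested.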

Other observations

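Chosen after their values were seen, 2 lysosomal enzymes outside the symbol rule missed the threshold over all probe sets. They passed it with the replicate number as a block, in opposite directions. Of all genes, 1.31% were higher with the block, and the share lower is not given here. Among the other lysosomal genes followed, SLC38A9, LAMTOR2 and LAMTOR3 also passed only with the block, as higher (blocked 0.0442, 0.0483 and 0.0440). PLA2G15, a lysosomal phospholipase, had pair differences of 1.47, 1.51 and 1.46 (log2 fold change 1.48, adjusted p = 0.0818 in limma, blocked 0.0417). Its probe set stands among the up-regulated ones that the study listed from these same arrays. HYAL1, the hyaluronidase of lysosomes, had pair differences of -1.21, -1.10 and -1.15 (log2 fold change -1.15, adjusted p = 0.0626 in limma, blocked 0.0417). In PLA2G15 and HYAL1, arrays of equal number moved together and the pairs differed by little. The unpaired SE was 0.28 and 0.19 and the blocked SE 0.02 and 0.03. Both genes were picked by these values, so the small blocked SE is not an independent result.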
